A study of Mus musculus with 16 samples.

Results

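The respiratory chain genes of mouse liver were taken as all genes whose symbol in the platform annotation began with Nduf, Sdha, Sdhb, Sdhc, Sdhd, Uqcr, Cox4, Cox5, Cox6, Cox7, Cox8 or Atp5. This gave 92 of the 18820 genes that had a transcript cluster, the array's unit of measurement, assigned to exactly 1 gene. A gene with several clusters was read from its brightest one. The 92 genes comprised 34 of complex I, 4 of complex II, 7 of complex III, 19 of complex IV, 17 of complex V and 11 assembly factors, which help to build complexes I and II without being part of them. Ndufa4 and Ndufa4l2 were counted with complex IV, where the Ndufa4 protein is found. Of the 92 genes, 91 passed the filter on low values and were tested among 14275 genes; the exception was Cox7b2, a testis form of a complex IV subunit, which was below the filter on all 16 arrays.

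The respiratory chain lies in the inner mitochondrial membrane and carries electrons from NADH, through complex I, and from succinate, through complex II, by way of ubiquinone, complex III and cytochrome c to oxygen at complex IV. Complexes I, III and IV pump protons as they do so, and complex V, the ATP synthase, uses the proton gradient to make ATP. All subunits of complex II and most of the others are encoded in the nucleus, and only those nuclear genes are described here. In liver the chain reoxidises the electron carriers reduced by fatty acid oxidation, whose genes are targets of the nuclear receptor PPARα.

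Livers came from 16 male C57BL/6J mice, with 1 Affymetrix Mouse Gene 1.1 ST array for each. From 9 weeks to 12 months of age the mice received an AIN-93W control diet (C) ad libitum, a variant of it richer in vitamins and minerals with calories cut by 30% (CR), a diet of medium fat content in which fat gave 25% of the energy (MF), or an intermittent regimen (INT, labelled ID) that switched each week between free access to the medium-fat food and 40% restriction, and the INT mice were killed in a medium-fat week. After a 4 h fast each mouse was gavaged with the PPARα agonist Wy-14643 (Wy) at 160 mg per kg body weight or with its solvent, carboxymethyl cellulose (mock). It was killed 6 h later, still fasted. By the paper, CR mice got their portion each day in the afternoon, whereas C and MF mice ate freely. When each mouse last ate before the fast is not given, so restriction and time since feeding cannot be told apart in CR. Each combination of diet, gavage and body weight class (high or low) held 1 mouse, so each diet had 4 mice, each gavage had 8, and the mock and Wy mice of a diet were paired by body weight, which gave 8 pairs. Arrays are named by body weight class, diet and gavage, as in high CR Wy.

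Values are log2 intensities, and a change of 1 is a 2-fold difference. A gene was called changed when its Benjamini-Hochberg adjusted p in limma, computed over all 14275 genes, was under 0.05. The p-values measure the spread between these mice. In whole liver, fewer cells of a type and less RNA per cell cannot be told apart. The 5 hepatocyte markers (Alb, Apoa1, Ttr, Tat and Cps1) had a mean between 12.82 and 13.31 on every array, whereas the 4 muscle markers had a mean between 5.03 and 5.40, and of 3 adipocyte markers Adipoq and Ucp1 were below the filter on all arrays. Array medians over the genes tested ran from 7.07 to 7.21. The high INT mock and high INT Wy arrays carried another array code than the remaining 14 arrays. The PPARα targets Acot1 and Pdk4 were higher by 3.08 and 4.00 in Wy than in mock mice, with no overlap between the groups.

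The 250 bases before the transcription start are shown for the genes on which the results turn: Ndufab1 and Ndufaf4, the members with the smallest p among those that rose with Wy; Cox7a1 and Sdhaf1, the members called between CR and C; and Cox7a2, the form of Cox7a1 that most tissues use. Sequences are from RefSeq (GRCm38.p6) and run 5′ to 3′ towards the start. Capitals mark matches to 4 motifs searched on both strands, namely CATGCGC (nuclear respiratory factor 1), CCGGAAG (ETS factors such as GABPA), AAGGTCA (oestrogen-related receptors) and CANAGGTCA (part of a PPAR element, which can contain AAGGTCA).
Ndufab1 (chr7:122101849-122102098, minus strand): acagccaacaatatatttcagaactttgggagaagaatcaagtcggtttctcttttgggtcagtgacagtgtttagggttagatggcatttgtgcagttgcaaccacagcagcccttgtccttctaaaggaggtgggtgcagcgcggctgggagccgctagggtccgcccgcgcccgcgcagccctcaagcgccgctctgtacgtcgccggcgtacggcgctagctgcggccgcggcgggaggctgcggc
Ndufaf4 (chr4:24897833-24898082, plus strand): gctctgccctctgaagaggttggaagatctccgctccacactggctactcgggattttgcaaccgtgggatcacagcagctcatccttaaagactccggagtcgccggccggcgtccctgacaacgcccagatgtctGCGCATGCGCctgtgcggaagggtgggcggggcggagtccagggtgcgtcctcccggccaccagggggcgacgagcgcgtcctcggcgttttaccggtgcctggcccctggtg
Cox7a1 (chr7:30183921-30184170, plus strand): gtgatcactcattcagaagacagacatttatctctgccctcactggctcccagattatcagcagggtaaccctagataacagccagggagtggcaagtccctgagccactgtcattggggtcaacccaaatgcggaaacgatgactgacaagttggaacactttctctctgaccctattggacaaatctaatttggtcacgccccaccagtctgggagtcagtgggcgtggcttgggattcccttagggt
Cox7a2 (chr9:79759854-79760103, minus strand): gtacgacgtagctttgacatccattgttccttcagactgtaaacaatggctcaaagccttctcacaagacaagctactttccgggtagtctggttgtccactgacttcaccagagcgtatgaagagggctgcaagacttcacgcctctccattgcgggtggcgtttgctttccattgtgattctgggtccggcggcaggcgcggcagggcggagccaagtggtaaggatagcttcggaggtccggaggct
Sdhaf1 (chr7:30322376-30322625, minus strand): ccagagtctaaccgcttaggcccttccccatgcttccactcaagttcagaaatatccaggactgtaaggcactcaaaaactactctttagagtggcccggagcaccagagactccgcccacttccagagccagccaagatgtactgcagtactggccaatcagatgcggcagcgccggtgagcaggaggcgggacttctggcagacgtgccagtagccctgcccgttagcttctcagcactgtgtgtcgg

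Of these 5 windows only that of Ndufaf4 held a match, a pair of overlapping CATGCGC copies on opposite strands. The Ndufab1 and Ndufaf4 windows contained 22 and 23 CG dinucleotides, that of Cox7a2 contained 14 and that of Sdhaf1 contained 10, against 4 in that of Cox7a1. The median was 15 over the 77 members with a promoter sequence and 6 over all 27025 genes with one. Over windows that also took in the 50 bases after the start, CATGCGC occurred in 15 of the 77 members (19.5%) and in 4.04% of all genes, CCGGAAG in 20 members (26.0%) and in 9.12% of all, AAGGTCA in 8 members (10.4%) and in 4.66% of all, and CANAGGTCA in 2 members (2.60%) and in 1.59% of all. The 2 members with CANAGGTCA were Ndufaf4 and Sdhb, of which Ndufaf4 rose with Wy. In the wider window Sdhaf1 held CCGGAAG. Among the 13 members with a promoter sequence that rose with Wy, 3 held CATGCGC (23.1%) and 0 held CCGGAAG.

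Most members varied little from mouse to mouse. The SD of a member over the 16 arrays had a median of 0.10, and it exceeded 0.2 in 13 of the 91. By complex the median SD was lowest in complex V (0.08) and highest among the assembly factors (0.145). Cox7a1 (SD 0.58), Ndufab1 (0.46) and Ndufaf6 (0.37) varied most and Cox6c, a complex IV subunit, least (0.04).

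Members called with Wy mostly rose, by small amounts. Of 91 members 14 rose and 2 fell in Wy against mock livers, which is 15.4% and 2.20%, whereas 12.3% of all genes tested rose and 16% fell (28.3% in either direction, against 17.6% of the members). Among subunits 13 rose and 0 fell: 5 of complex I, 2 of complex III, 3 of complex IV and 3 of complex V. No gene of complex II was called. Among the 11 assembly factors 1 rose and 2 fell. The median change was 0.03 over the members and -0.01 over all genes tested. When each array was first centred on its median, 21 members rose and 2 fell, and the share of calls over all genes that were higher in Wy went from 43.5% to 53.9%. All of these counts compare 8 Wy with 8 mock arrays with the pair as a block.

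**Figure D1:**
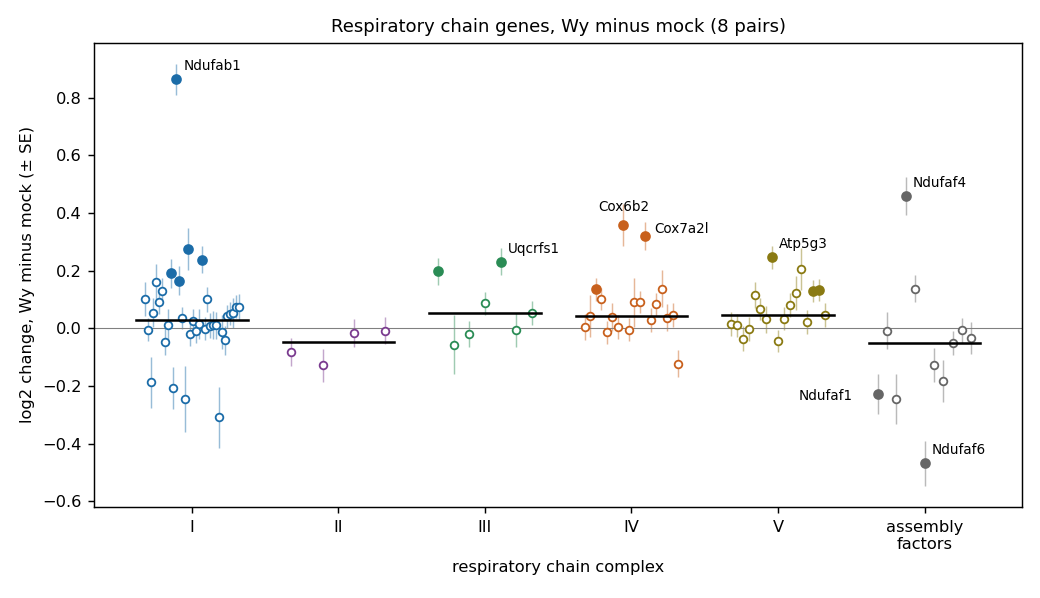
Log2 change between Wy and mock livers for the 91 respiratory chain genes tested, by complex. Circles are genes with their SE over 8 pairs, filled where the adjusted p was under 0.05, and black lines are medians; Ndufab1 lies at 0.86, and the 4 complex II genes are all unfilled and below 0.

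Ndufab1 showed the largest change of the 91. It encodes the mitochondrial acyl carrier protein, which serves mitochondrial fatty acid synthesis and is also a subunit of complex I. The 8 mock arrays ran from 9.19 to 9.41 with a median of 9.22, and the 8 Wy arrays from 9.91 to 10.32 with a median of 10.15. All Wy arrays were above all mock arrays. The difference was 0.86 ± 0.05 (SE, n = 8 pairs; limma adjusted p = 1.86e-06), or 1.82-fold. Within pairs it ran from 0.69 in low C to 1.04 in low MF. A second cluster of the gene gave 0.90.

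Ndufaf4, an assembly factor of complex I, ran from 7.94 to 8.48 with a median of 8.13 on the mock arrays and from 8.19 to 8.94 with a median of 8.59 on the Wy arrays. The groups overlapped, yet Wy was higher in 8 of 8 pairs, by 0.46 ± 0.07 (SE; limma adjusted p = 0.000441). Cox7a2l, counted here with complex IV, was higher by 0.32 ± 0.05 (adjusted p = 0.000542), again in 8 of 8 pairs. This value comes from the brighter of its 2 clusters, and the other gave 0.18. Atp5g3, one of 3 genes for the identical membrane ring protein of ATP synthase, was higher by 0.25 ± 0.04 (adjusted p = 0.00071) with no overlap between the groups. The other ring genes, Atp5g1 and Atp5g2, changed by 0.07 and 0.03 and were not called.

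Ndufb8, an accessory subunit of complex I, was higher by 0.24 ± 0.05 (adjusted p = 0.00292). Uqcrfs1, the Rieske iron-sulphur protein of complex III, was higher by 0.23 ± 0.05 (adjusted p = 0.00356). Both rose in 8 of 8 pairs. Cox6b2, the testis form of a complex IV subunit, was higher by 0.36 ± 0.07 (adjusted p = 0.00366) at intensities near the low end of the array, where its mean was 5.20 in Wy and 4.85 in mock. The remaining 7 members called higher were Uqcr10, Ndufa8, Ndufb3, Atp5mpl, Atp5o, Cox5a and Ndufb10, with changes between 0.13 and 0.27. Of all 16 calls, those of Atp5mpl, Atp5o, Cox5a, Ndufaf1 and Ndufb10 were lost when some single pairs were left out. Their limma adjusted p was then up to 0.0807, and the other 11 calls were kept whichever pair was left out. Among these fits, the one without the high INT pair lost the calls of Atp5o, Cox5a and Ndufb10. With the mean over clusters the call of Atp5o was lost too.

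Both members that fell are assembly factors of complex I. Ndufaf6 ran from 6.63 to 7.74 with a median of 7.37 on the mock arrays and from 6.54 to 7.21 with a median of 6.85 on the Wy arrays. The groups overlapped, and Wy was lower in 7 of 8 pairs. The high MF pair was the exception, at 0.06. The fitted change was -0.47 ± 0.08 (SE, n = 8 pairs; limma adjusted p = 0.0011). Ndufaf1 ran from 9.06 to 9.44 on the mock arrays, with a median of 9.31, and from 8.73 to 9.37 on the Wy arrays, with a median of 9.08. It was lower in 8 of 8 pairs, and its fitted change was -0.23 ± 0.07 (adjusted p = 0.0286).

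No subunit of the catalytic core of complex I was called with Wy. The 6 measured core subunits, Ndufv1, Ndufv2, Ndufs1, Ndufs3, Ndufs7 and Ndufs8, changed by 0.01 to 0.07, and 0 of 6 were called. The smallest p among them belonged to Ndufv2 (0.07 ± 0.04, adjusted p = 0.197). In complex II, Sdhb had the smallest p, at -0.13 ± 0.06 (adjusted p = 0.121). Sdha changed by -0.08, Sdhc by -0.02 and Sdhd by -0.01, and none was called. The largest negative changes that were not called, picked out after their values were seen, were those of Ndufs4 (-0.31 ± 0.11, adjusted p = 0.0501) and Ndufb2 (-0.25 ± 0.12, adjusted p = 0.139), both of complex I. The 5 subunits of the F1 head of ATP synthase changed by -0.04 to 0.11, and 0 were called. Tissue forms other than Cox6b2 were not called with Wy either: Ndufa4l2 changed by -0.12, Cox8b by 0.14, Cox7a1 by 0.09, and Cox4i2, Cox6a2 and Cox8c by 0.04 each.

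The mean over the genes of a complex moved less than its called members. These means left out the 7 tested tissue forms, all of complex IV, among them Cox7a1 and the called Cox6b2. Averaged over its genes, complex V was higher in Wy in 8 of 8 pairs, by 0.07 ± 0.01 (SD over pairs). Complex IV was also higher in 8 of 8, by 0.07 ± 0.04. Complexes I and III were higher in 7 of 8 pairs, by 0.05 ± 0.05 and 0.07 ± 0.07, and for both the low INT pair was the exception. Complex II was lower in 6 of 8 pairs, with a mean of -0.06 ± 0.08, and the assembly factors were lower in 7 of 8, with a mean of -0.07 ± 0.05. In the same pairs the array median over all genes tested moved by -0.03 ± 0.05, and it was higher in Wy in 2 of 8. These means are descriptions and were not tested.

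**Figure D2:**
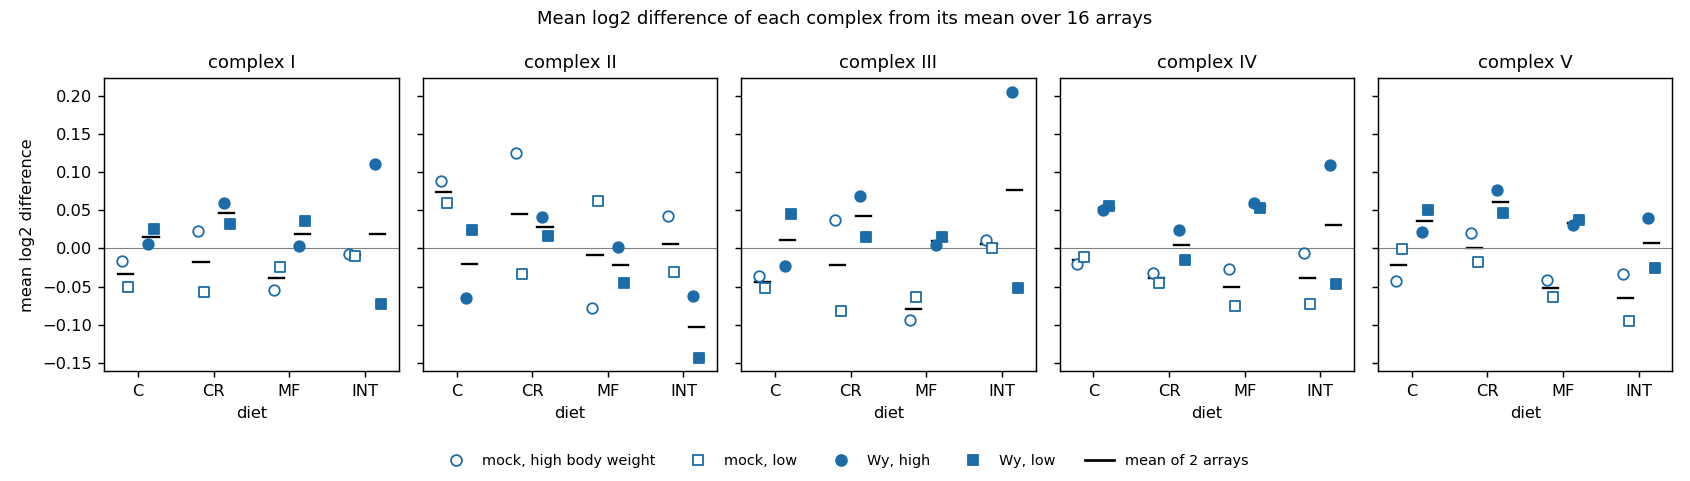
Mean log2 difference of each complex from its own mean over the 16 arrays, by diet. The 7 tested tissue forms of complex IV, Cox7a1 among them, are left out. Circles are high and squares low body weight mice, open for mock and filled for Wy, and bars are means of 2 arrays; the Wy points of complex V lie above the mock point of their pair in 8 of 8 pairs, while the diet means of 4 arrays lie between -0.05 and 0.04 in every complex.

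Genes next to the chain were taken from fixed lists, whose shares stand beside the 12.3% of all genes that rose and the 16% that fell. Of 13 measured electron carriers and ubiquinone synthesis genes 5 rose with Wy (38.5%) and 0 fell. Etfdh, which passes electrons from fatty acid oxidation to ubiquinone, rose by 0.56 ± 0.06 (adjusted p = 3.55e-05) with no overlap between the groups, and Coq3 and Coq6 of ubiquinone synthesis rose by 0.39 and 0.23. Of 35 other assembly factors 7 rose (20%) and 3 fell (8.57%), among them Cox18, Coa7 and Cox19 of complex IV assembly, which rose by 0.33, 0.28 and 0.45. Of 12 citric acid cycle genes 5 rose (41.7%) and 0 fell, led by Idh3a (0.33), Dlst (0.22) and Mdh2 (0.16). Of 74 mitochondrial ribosome genes 10 rose (13.5%) and 4 fell (5.41%), the smallest p being those of Mrps18b (0.38), Mrps2 (0.29) and Mrps17 (0.32). Of 14 import and channel genes 5 rose (35.7%) and 0 fell, led by Tomm70a (0.40), Tomm40 (0.34) and the chaperonin gene Hspe1 (0.27).

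Regulators of mitochondrial genes moved in both directions, with 5 of 15 rising (33.3%) and 1 falling (6.67%). Ppargc1a, the coactivator PGC-1α, was lower in Wy, with a fitted change of -0.99 ± 0.07 (adjusted p = 4.77e-06). Its relative Ppargc1b rose by 0.61 ± 0.10 (adjusted p = 0.000688). Tfam, which packs and helps to transcribe mitochondrial DNA, rose by 0.40 ± 0.06 (adjusted p = 0.00049). Among hepatocyte markers, Cps1 and Tat were lower in Wy, with changes of -0.32 and -0.39, and 3 of 5 were not called. Of 4 Kupffer cell markers 0 were called, with changes of 0.10 to 0.30. The adipocyte marker Plin1, the only 1 of its list that was tested, was called higher by 0.16. The part of these in the changes of the members was not tested. The third Wy check gene, Cyp4a14, rose by 0.63.

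Whether the response to Wy differed by diet or by body weight was tested with interaction terms. Of 91 members 0 passed for diet (0% of all genes), and 1 member, Sdhaf1, had an unadjusted limma p under 0.05. Sdhaf1 and Ndufaf3 had the smallest p (limma adjusted p = 0.997 for both). For body weight 0 members passed (0% of all genes) and 3 had an unadjusted p under 0.05. The smallest limma p were those of Cox4i2, whose Wy effect was larger in high than in low mice by 0.36 ± 0.10, and Cox7a1, by 0.39 ± 0.13 (adjusted p = 0.999 for both). Cox4i2 read 4.46 to 4.90 over the 16 arrays, close to the filter at 4.32.

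Calorie restriction changed 2 of the 91 members against the control diet, 1 up and 1 down (1.1% each), where 4.54% of all genes tested rose and 5.98% fell (10.5% in either direction). After centring of the arrays 2 members rose and 1 fell, and the share of calls over all genes that were higher in CR went from 43.2% to 57.1%. The median change was 0.01 over the members and -0.01 over all genes.

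Cox7a1 rose. It encodes the heart and skeletal muscle form of subunit VIIa of cytochrome c oxidase. In CR livers it read 8.10 (high CR mock), 8.48 (high CR Wy), 8.51 (low CR mock) and 8.10 (low CR Wy). In C livers it read 7.08 (high C mock), 7.30 (high C Wy), 6.99 (low C mock) and 7.02 (low C Wy). All 4 CR arrays were above all 12 arrays of the other diets, whose highest reading was 7.57. The difference between CR and C was 1.20 ± 0.14 (SE, n = 4 mice per diet; limma adjusted p = 0.000254), or 2.30-fold. Among mock arrays alone, with 2 per diet, it was 1.27 (adjusted p = 0.085), which was no longer called.

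None of the other muscle genes measured was called. The 4 muscle markers Acta1, Ckm, Myh7 and Tnnt3 changed by -0.04 to 0.09 between CR and C, and 0 of 4 were called. The other muscle forms of complex IV subunits, Cox6a2 and Cox8b, changed by 0.06 and -0.07 and were not called. Cox7a2, the usual form of the same subunit, changed by -0.06 ± 0.05 (adjusted p = 0.47), and it was lower in 4 of 4 matched comparisons. The adipocyte marker Plin1 changed by -0.01.

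Sdhaf1 fell. It encodes an assembly factor that helps to insert iron-sulphur clusters into Sdhb of complex II. In CR livers it read 6.79 (high CR mock), 6.88 (high CR Wy), 6.73 (low CR mock) and 6.87 (low CR Wy). In C livers it read 7.41 (high C mock), 7.11 (high C Wy), 7.56 (low C mock) and 7.13 (low C Wy). The diets did not overlap, and in C the 2 mock arrays were above the 2 Wy arrays. The difference was -0.48 ± 0.11 (SE, n = 4 mice per diet; limma adjusted p = 0.0127). Its dimmer second cluster gave -0.14, and with the mean over both clusters the change was -0.31 and was not called (adjusted p = 0.0567). Among mock arrays alone it was -0.72 and was not called (adjusted p = 0.121). Of the complex II subunits Sdha, Sdhb, Sdhc and Sdhd, which changed by -0.09 to 0.12, none was called.

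**Figure D3:**
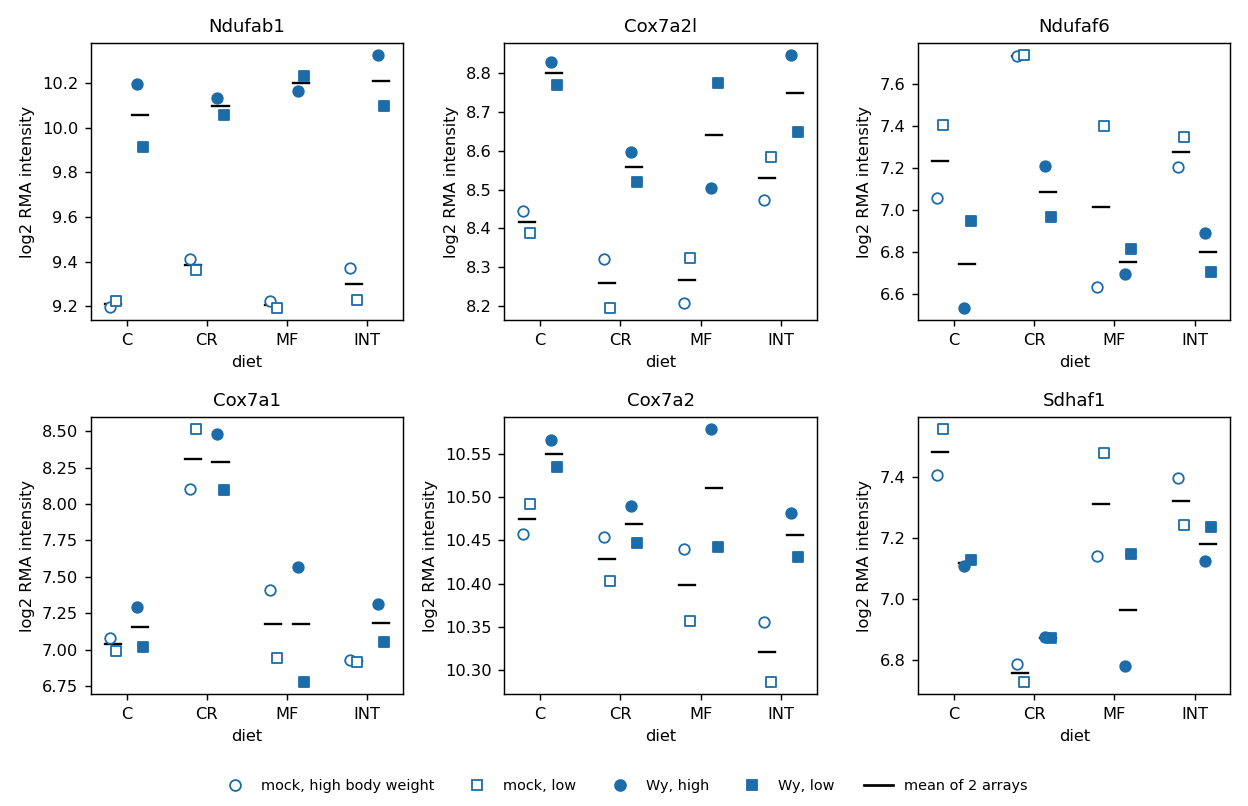
Log2 RMA intensity of 6 members on each of the 16 arrays, by diet. Circles are high and squares low body weight mice, open for mock and filled for Wy, and bars are means of 2 arrays; the Cox7a1 readings of CR lie between 8.10 and 8.51 and those of the other diets at 7.57 or lower, and every filled Ndufab1 point lies above every open one.

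Apart from Cox7a1 and Sdhaf1 no member was called with restriction. The mean over complex I was 0.01 ± 0.05 (SD, n = 4 mice) in CR and -0.01 ± 0.03 in C, and that over complex V was 0.03 ± 0.04 and 0.01 ± 0.04, each relative to its mean over the 16 arrays. In complexes I, II, III and V 0 of 62 members were called, and their changes ran from -0.22 to 0.21. The assembly factors ranged more widely, from -0.48 to 0.42, and 5 of 11 had an unadjusted limma p under 0.05. Besides Sdhaf1 these were Ndufaf6 (0.42 ± 0.14, adjusted p = 0.0661), Ndufaf5 (0.22 ± 0.07, adjusted p = 0.0665), Sdhaf2 (-0.16 ± 0.06, adjusted p = 0.0842) and Ndufaf3 (-0.31 ± 0.13, adjusted p = 0.134). None of the 6 measured core subunits of complex I was called, the largest change being that of Ndufv1 (0.15 ± 0.07, adjusted p = 0.176), and Uqcrfs1 changed by 0.12 ± 0.07 (adjusted p = 0.319). Of the genes beside the chain, Ppargc1a was higher in CR by 1.44 ± 0.18 (adjusted p = 0.000422) with no overlap, whereas Tefm and Polg of mitochondrial DNA expression and copying fell by 0.32 and 0.20. Of 35 assembly factors outside the set 4 fell (11.4%) and 0 rose, led by Cox19 (-0.78), Coa6 (-0.54) and Cox16 (-0.28) of complex IV assembly. Coq4 of ubiquinone synthesis was the 1 of 13 electron carrier genes that fell (-0.49). Of 74 mitochondrial ribosome genes 2 rose (2.7%) and 4 fell (5.41%), led by Mrps18a (-0.33), Mrps22 (0.41) and Mrpl45 (-0.34). Hspa9, a chaperone of protein import, rose by 0.20. In the citric acid cycle 0 of 12 were called.

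Markers of other cells also moved with CR. Of 4 lymphocyte markers 1 fell, Cd79b (-0.77), and their summary over arrays ran from 4.78 to 6.07. Of 4 stellate cell markers 2 fell, Col1a1 (-0.42) and Pdgfrb (-0.41), with a mean between 7.71 and 8.45 over the arrays. The changes over the stellate cell list ran from -0.42 to 0.24. The hepatocyte marker Tat rose by 0.65. The part of these in the changes of Cox7a1 and Sdhaf1 was not tested.

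The INT diet differed from CR in 6 members, of which 2 were higher and 4 lower in INT (2.20% and 4.40%), where 5.57% of all genes were higher and 4.28% lower (9.85% in either direction). After centring 1 was higher and 6 were lower, and the share of calls over all genes that were higher in INT went from 56.5% to 41.9%. This comparison uses the same 4 CR arrays as the comparison of CR with C. Cox7a1 read 6.93 (high INT mock), 7.31 (high INT Wy), 6.92 (low INT mock) and 7.05 (low INT Wy), all below the CR arrays, with a fitted change of -1.25 ± 0.14 (limma adjusted p = 0.000145). Sdhaf1 read 7.40, 7.12, 7.24 and 7.24 on the same arrays, all above the CR arrays, and was higher by 0.43 ± 0.11 (adjusted p = 0.023).

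Sdhaf2, which attaches FAD to the complex II subunit Sdha, read 8.43 (high INT mock), 8.41 (high INT Wy), 8.37 (low INT mock) and 8.36 (low INT Wy) and between 8.15 and 8.26 in CR. The groups did not overlap, and the difference was 0.19 ± 0.06 (limma adjusted p = 0.0481). Cox6a2, the muscle form of a complex IV subunit, read 5.05 (high INT mock), 5.23 (high INT Wy), 5.15 (low INT mock) and 5.02 (low INT Wy), below the CR range of 5.25 to 5.55, with a change of -0.28 ± 0.07 (adjusted p = 0.0256). Ndufb6, an accessory subunit of complex I, changed by -0.21 ± 0.06 (adjusted p = 0.0374) without overlap. Ndufv1, the core subunit that binds NADH and FMN, changed by -0.23 ± 0.07 (adjusted p = 0.0465), lower in 3 of 4 matched comparisons. The call of Cox7a1 was kept whichever array was left out, with adjusted p up to 0.000903. With the pair as a random block the calls of Ndufb6, Ndufv1 and Sdhaf2 were lost (limma adjusted p = 0.0531, 0.0663 and 0.0662). Those of Cox6a2 and Sdhaf1 were each lost with 5 of the 16 arrays left out in turn, that of Ndufb6 with 8, that of Ndufv1 with 14 and that of Sdhaf2 with 15. On the 14 arrays of the first array code, which leave 2 INT mice, Cox7a1 was the only one of the 6 that stayed called.

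**Figure D4:**
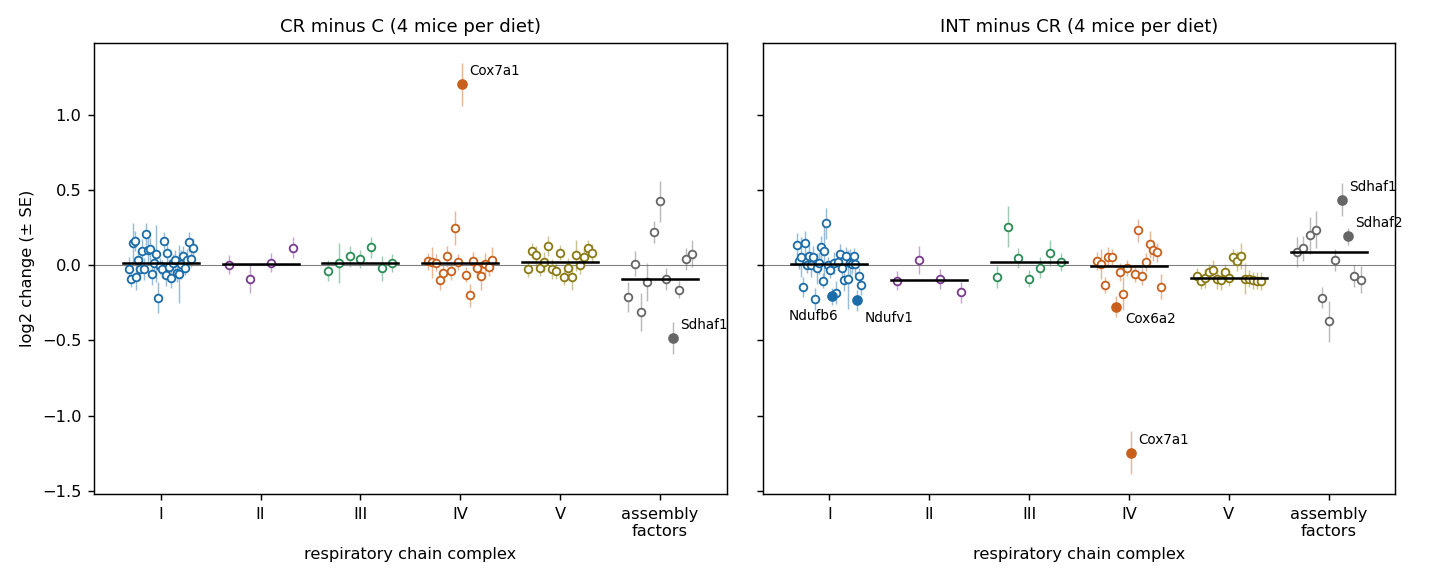
Log2 change of the 91 members between CR and C (left) and between INT and CR (right), by complex, on a shared vertical axis. Circles are genes with their SE, filled where the adjusted p was under 0.05, and black lines are medians; Cox7a1 stands at 1.20 on the left and -1.25 on the right, and both panels use the same 4 CR arrays.

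In complex II, Sdhd had the smallest p between INT and CR, at -0.18 ± 0.07 without overlap (adjusted p = 0.124), and 0 of 4 were called. Of 17 complex V genes 14 were lower in INT, with a median of -0.09, and 0 were called. Beside the chain Ppargc1a was lower in INT (-1.71 ± 0.18, adjusted p = 9.1e-05). Of 35 further assembly factors 8 were higher (22.9%) and 0 lower, led by Cox19 (0.86), Coa7 (0.30) and Taco1 (0.37). Of 12 citric acid cycle genes 1 was higher, Suclg1 (0.23), and 2 were lower, Cs (-0.34) and Mdh2 (-0.28). Tefm and Polg were higher by 0.38 and 0.21. Of 74 ribosome genes 3 were higher (4.05%) and 1 was lower (1.35%), led by Mrpl23 (-0.39), Mrps18a (0.28) and Mrps26 (0.50), and of 14 import genes Hspa9 (-0.19) and Vdac1 (-0.20) were lower. Of 5 hepatocyte markers Tat (-0.76) and Cps1 (-0.26) were lower in INT, and of 4 lymphocyte markers Cd79a (0.82) was higher; their part in the changes of the members was not tested.

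CR differed from MF in 3 members, all higher in CR (3.30%), where 5.79% of all genes were higher and 6.87% lower (12.7% in either direction). Cox7a1 read 7.41 (high MF mock), 7.57 (high MF Wy), 6.94 (low MF mock) and 6.78 (low MF Wy), below all CR arrays, and the difference was 1.12 ± 0.14 (SE, n = 4 mice per diet; limma adjusted p = 0.000333). Ndufaf6 read 7.73 (high CR mock), 7.21 (high CR Wy), 7.74 (low CR mock) and 6.97 (low CR Wy) in CR and 6.63 (high MF mock), 6.70 (high MF Wy), 7.40 (low MF mock) and 6.82 (low MF Wy) in MF. The diets overlapped, and CR was higher in 4 of 4 matched comparisons, by 0.53 ± 0.14 (adjusted p = 0.0238). Sdhaf3, an assembly factor of complex II, was higher by 0.26 ± 0.07 (adjusted p = 0.0352). That call was lost without high CR mock, high CR Wy, high MF mock, high MF Wy or low CR Wy, with adjusted p up to 0.117, and on the first array code only (0.0502). Without high CR mock, high CR Wy or high MF mock the call of Ndufaf6 was lost, with adjusted p up to 0.0781. Beside the chain Ppargc1a was higher in CR by 1.95, and of 15 regulators 1 was called higher (6.67%) and 1 lower (6.67%). Of 35 further assembly factors 5 were lower (14.3%) and 0 higher, and Cox19, Coa7 and Coa6 changed by -0.82, -0.30 and -0.43. Of 74 ribosome genes 1 was higher (1.35%) and 5 were lower (6.76%). In CR 1 of 12 citric acid cycle genes and 1 of 13 electron carrier genes were lower, and 1 of 14 import genes was higher. Of 5 hepatocyte markers Tat (0.60) and Cps1 (0.31) were higher in CR, with changes over the list from -0.03 to 0.60. Of 4 endothelial markers Kdr (0.47) was higher, with the list from -0.14 to 0.47. Of 4 stellate cell markers Col1a1 (-0.56) and Pdgfrb (-0.48) were lower, with the list from -0.56 to 0.32. Of 4 lymphocyte markers Cd79a (-0.79) was lower, with the list from -0.79 to -0.23. The part of these markers in these results was not tested. Centring raised the share of calls over all genes that were higher in CR from 45.7% to 56.2% and the count of members from 3 to 5.

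Between the diets other than CR 0 members were called by limma. Between MF and C this was 0% of all genes, and 1 member had an unadjusted p under 0.05, Sdhaf3 (-0.22 ± 0.07), followed by Cox7a2l (-0.16 ± 0.08; adjusted p = 0.9999 for both). Between INT and C it was 0.00701% of all genes, which is 1 gene, and 2 members had an unadjusted p under 0.05, Cox6a2 (-0.22 ± 0.07, adjusted p = 0.371) and Cox7a2 (-0.12 ± 0.05, adjusted p = 0.459). Between INT and MF it was 0% of all genes, and 7 members had an unadjusted p under 0.05, led by Cox6a2 (-0.27 ± 0.07, adjusted p = 0.352) and Cox8c, a testis form (0.19 ± 0.07, adjusted p = 0.378). Cox7a1 differed from C by 0.08 in MF and by -0.04 in INT, each with an SE of 0.14. These comparisons share arrays with each other and with those of CR.

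Body weight class was compared within C and MF together and within CR and INT together. In C and MF 1 member was called, lower in high mice (1.1%), where 2.72% of all genes were lower (7.39% in either direction). This was Ndufaf6. High mice read 7.06 (high C mock), 6.54 (high C Wy), 6.63 (high MF mock) and 6.70 (high MF Wy). Low mice read 7.41 (low C mock), 6.95 (low C Wy), 7.40 (low MF mock) and 6.82 (low MF Wy). The classes overlapped, but the high mouse was lower in 4 of 4 matched comparisons, with a change of -0.41 ± 0.11 (SE; limma adjusted p = 0.0492). This call was lost with 13 of the 16 arrays left out in turn, with adjusted p up to 0.183. The change itself ran from -0.56 without high MF Wy to -0.26 without high MF mock. Cox7a1 was higher in high mice without overlap, by 0.41 ± 0.12, and was not called (adjusted p = 0.0636).

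**Figure D5:**
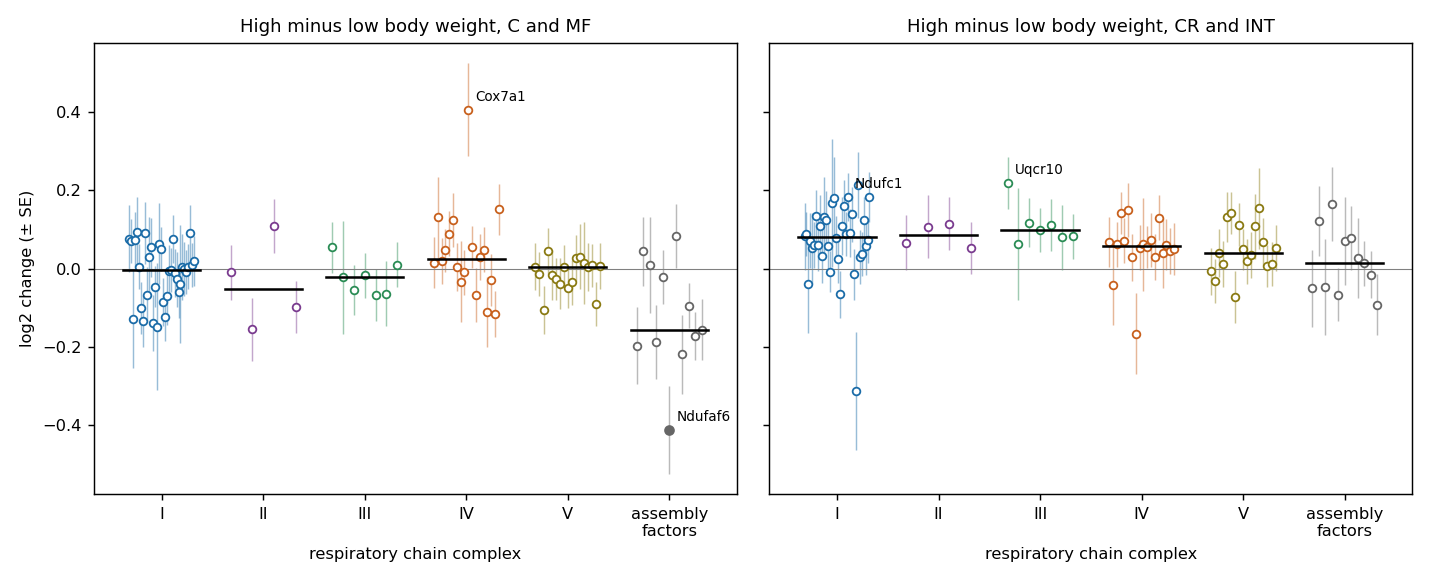
Log2 change of the 91 members between high and low body weight mice in C and MF (left) and in CR and INT (right), by complex. Circles are genes with their SE over 4 mice per class, filled where the adjusted p was under 0.05, and black lines are medians; the medians of complexes I to V lie between -0.05 and 0.02 on the left and between 0.04 and 0.10 on the right.

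In CR and INT 0 members were called (0% of all genes) and 8 had an unadjusted limma p under 0.05, led by Uqcr10 of complex III (0.22 ± 0.07) and Ndufc1 of complex I (0.18 ± 0.06; adjusted p = 0.968 for both). Of 91 members 76 had positive changes, where 6461 of all 14275 genes tested did, and the median was 0.06 against -0.01 over all genes. All 7 genes of complex III and all 4 of complex II were positive. The 2 high INT arrays are those with the other array code, so body weight and array code cannot be told apart within INT. In CR, where all arrays had the first code, the complex III mean was 0.04 (high CR mock) and 0.07 (high CR Wy) against -0.08 (low CR mock) and 0.02 (low CR Wy). The difference of the body weight effect between the 2 sets of diets called 0 members (0.855% of all genes), and 5 had an unadjusted p under 0.05, led by Ndufaf6 (-0.48 ± 0.16, adjusted p = 0.187) and Ndufaf4 (-0.35 ± 0.13, adjusted p = 0.256).

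In C and MF several genes beside the chain differed by body weight. Over all genes tested 4.67% were higher and 2.72% lower in high mice. Tfam was lower in high mice, at -0.38 ± 0.08 (adjusted p = 0.0219), and 4 of 74 mitochondrial ribosome genes were lower (5.41%) and 1 was higher (1.35%), led by Mrpl47 (-0.38), Mrps30 (-0.31) and Mrps35 (-0.35). The Kupffer cell marker Cd68 was higher in high mice by 0.76, the stellate cell marker Col1a1 by 0.55 and the endothelial marker Pecam1 by 0.28, whereas the hepatocyte marker Cps1 changed by -0.28. These were 1 of 4 markers in each of the first 3 lists and 1 of 5 for hepatocytes. Other markers of the same lists went the other way in Kupffer cells (-0.56 to 0.76 over the list) and endothelial cells (-0.28 to 0.28). The stellate cell list ran from 0.03 to 0.55 and the hepatocyte list from -0.28 to 0.01. The part of these markers in the change of Ndufaf6 was not tested.

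Several members could not be read as single genes. Cox7c, Uqcrc2 and Ndufa13 are absent because each of their clusters was assigned to more than 1 gene. For 67 of the 92 members 1 cluster was assigned to the gene and for 25 several, 59 clusters in all, and signal from processed copies elsewhere in the genome may enter such clusters; Atp5l, for example, had 6 clusters with Wy changes between 0.14 and 0.21, and the one used was not called. The subunits encoded by mitochondrial DNA are not analysed here.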

How the data were processed

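Values are the log2 intensities deposited by the authors, made by RMA from Affymetrix Mouse Gene 1.1 ST arrays, per the labels; the sources used here do not give the RMA version. RMA quantile-normalizes the arrays together, so a shift shared by most genes is removed. Rows are the manufacturer's transcript clusters (35556), not the Entrez-based probe sets that the study's methods describe. They were named from the platform annotation: 21218 clusters had 1 gene, 1881 had several and 12457 had none. For a gene with several clusters, the brightest was used. Genes with an intensity above 20 on at least 5 arrays were tested (14275 of 18820).

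Tests used limma 3.58.1 in R 4.3.3 (lmFit and eBayes), with Benjamini-Hochberg adjustment over all genes tested. Wy was compared with mock with the matched pair as a block, since the labels give pairs of mock and Wy mice matched on weight at death. Diets were compared in an additive model with treatment and body weight class, and body weight in a model of diet by class with treatment. Deviations of pair partners from their group means correlated at 0.53 (C), 0.56 (MF), 0.08 (INT) and -0.17 (CR). The tests were checked on simulated data. Alternatives were no filter, arrays centred on their medians, eBayes with trend and robust, the first array code only, the mean over clusters, other treatments of the pair, mock arrays only, and each array left out. In fits with the pair as a block, an array left out took its pair partner with it. The number of arrays limits the precision. Members, gene lists and tests were chosen with earlier results of these data known. Genes named in a comparison are its called members (beyond 12, the 6 with the smallest p in each direction and the first of each complex, with the rest given together) or, where 0 were called, the 2 with the smallest p, besides tissue isoforms, complex II subunits, core complex I subunits, Uqcrfs1 and up to 3 genes of each list with a call. Promoter sequences are from RefSeq (GRCm38.p6); 77 of the 92 members matched by symbol, and a gene's first entry was used.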

Additional observations from a re-analysis of the deposited data

Results flagged for a closer look

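The within-pair differences between Wy and mock were screened by Dixon's criterion, which flags about 1 in 20 groups by chance, in 24 groups of 8 pairs (8 means over gene groups and the 16 members called). In 4 of the 24, 1 pair stood far from the other 7. They were the mean over complex V in the low MF pair (0.10), Atp5o in the high INT pair (0.26), Cox7a2l in the low INT pair (0.0661) and Ndufaf1 in the high INT pair (-0.69). The 2 arrays of the high INT pair carry the other array code. The differences of the 3 genes had the sign of their fitted change.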

How the results depend on the processing

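In all comparisons tested 0 directions of named calls were reversed. Of 28 named calls 13 were kept in all settings other than leaving out arrays and 15 whichever array was left out. For Wy the count of members called was 16 and became 17 with no replicate block, 23 after centring and 20 with trend and robust. It was 12 to 18 with 1 array, and thereby its pair, left out. Between CR and C it was 2, and became 1 with the mean over clusters and 0 on mock arrays only; leaving out 1 array gave 2 to 4, the 4 without high MF mock. Between INT and CR it was 6, and became 2 on the first array code only, 3 with the pair as a random replicate block, which had a consensus correlation of 0.07, and 0 on mock arrays only; leaving out 1 array gave 1 to 5, with 1 without low CR mock, 2 without high CR mock or low INT Wy, and 3 without high C Wy, high CR Wy, high INT mock or low MF Wy. Between CR and MF it was 3, and became 5 after centring, 5 with trend and robust and 0 on mock arrays only; leaving out 1 array gave 1 to 4, the 1 without high CR mock. For body weight in C and MF it was 1, and became 0 with no filter, after centring, on the first array code only and on mock arrays only; leaving out 1 array gave 0 to 2, with 2 without low CR mock or low CR Wy, 1 without high MF Wy and 0 without each of the other 13. The difference of the body weight effect was 0, and 1 without high MF Wy. All other counts stayed at 0 in the alternatives run. The random block could not be fitted to the body weight comparisons, and body weight in CR and INT could not be estimated on the first array code. The random block changed no call of a named gene except those of Ndufb6, Ndufv1 and Sdhaf2 between INT and CR. In the 3 comparisons with CR, Cox7a1 was called in every setting run except mock arrays only, where it was called in none. The cause of these changes was not tested. Signal near the low end of the array limits the tissue forms other than Cox7a1.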
